A study of Mus musculus with 4 samples.

Results

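The tendon lineage genes are a set of 7 mouse genes, Scx, Mkx, Tnmd, Thbs4, C1qtnf3, Chodl and Ptgis, taken by symbol from the 32285 genes listed in the files. No measured value entered the rule that names them, but the set was chosen with earlier results of these data known. All 7 were found, and 6 of them reached 5 CPM in the connective-tissue cells described below, Chodl being the exception. A UMI is a unique molecular identifier, a tag that marks 1 captured RNA molecule, and CPM, the usual unit scaled to depth, are the UMIs of a gene relative to all UMIs of the cells that were summed.

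The data were single-cell RNA profiles of mouse digits at P2, the middle phalanx, a level at which the series describes amputation as non-regenerative and the tissue as fibrosing. The 4 groups were unamputated digits at homeostasis and digits taken 12, 17 and 28 days post-amputation (dpa), and each group held 1 library. Every group was of wild-type FVB/NJ mice, 8 weeks old, and the labels describe each library as a pool of males and females without giving the number of animals. Trypsin and collagenase I released the cells from dissected tissue, erythrocytes were removed by lysis, and cells that excluded propidium iodide, a stain of dead cells, were sorted and loaded on the 10x 3′ v3 platform.

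Tendons join muscle to bone and are built mainly of aligned type I collagen laid down by tenocytes, which are specialised fibroblasts. Scx, a basic helix-loop-helix transcription factor, marks tendon progenitors and tenocytes, and Mkx, a homeobox factor, is needed for normal growth of tendon collagen fibrils. Tnmd, a membrane glycoprotein, is a marker of differentiated tenocytes, and thrombospondins such as Thbs4 are glycoproteins of the tendon matrix. Factors of the Scx family bind E-boxes, short DNA motifs of the form CANNTG.

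The promoter window was available from RefSeq for 4 of the 7 genes (build GRCm38.p6), and those of the 3 genes with the matrix, membrane and secreted products that the results turn on are shown because their levels are followed across the libraries below. Each window runs 5′ to 3′ on the strand of the gene, from 250 bases before to 50 bases after the annotated start, in lower case with every CANNTG in capitals. The motif reads the same on both strands, and overlapping matches were counted.
Tnmd, chrX:133850758-133851057, plus strand: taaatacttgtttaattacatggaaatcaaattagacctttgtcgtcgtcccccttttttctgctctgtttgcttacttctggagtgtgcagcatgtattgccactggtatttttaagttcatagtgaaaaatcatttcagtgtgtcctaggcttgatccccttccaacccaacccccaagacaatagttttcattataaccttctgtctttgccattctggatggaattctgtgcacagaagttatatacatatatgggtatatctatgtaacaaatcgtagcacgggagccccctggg
Thbs4, chr13:92794769-92795068, minus strand: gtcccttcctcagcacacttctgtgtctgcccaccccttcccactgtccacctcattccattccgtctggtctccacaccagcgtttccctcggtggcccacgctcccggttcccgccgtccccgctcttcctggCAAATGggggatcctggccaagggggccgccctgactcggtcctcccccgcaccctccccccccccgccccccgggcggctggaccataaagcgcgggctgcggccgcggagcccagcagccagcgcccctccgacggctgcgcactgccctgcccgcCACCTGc
C1qtnf3, chr15:10952082-10952381, plus strand: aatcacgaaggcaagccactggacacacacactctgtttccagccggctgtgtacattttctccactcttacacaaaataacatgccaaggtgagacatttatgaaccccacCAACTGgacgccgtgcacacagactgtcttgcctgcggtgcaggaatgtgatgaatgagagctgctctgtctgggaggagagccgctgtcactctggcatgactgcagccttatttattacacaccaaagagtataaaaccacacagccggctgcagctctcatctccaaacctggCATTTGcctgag
The Tnmd window held 0 such matches, and those of Thbs4 and C1qtnf3 held 2 each. The window of Chodl, not printed, held 4. Of all 32851 windows of this length in the table, 72.3% held at least 1 match, 39.6% at least 2 and 6.49% at least 4. A match describes these letters only and says nothing of binding.

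The library labelled unamputated held 10394 cells after filtering, and the 12, 17 and 28 dpa libraries held 6514, 7918 and 10125, with medians of 11630, 9545, 8511 and 6654 UMIs per cell. The 12 dpa library stood apart in sex: Xist, the transcript of the inactive X chromosome, was at 458 CPM there and at most 0.153 CPM in the others, while 4 Y-linked genes summed to 0.228 CPM there and to between 244 and 350 CPM in the others. The labels give pools of both sexes for all 4 libraries, so this goes against them, and female sex and 12 dpa cannot be told apart in any value below. Tnmd is X-linked, and the other 6 genes are autosomal. Pairs of libraries shared between 19 and 87 cell barcodes, at most 0.570% of the smaller library. Because each group had 1 library, no test was possible, and the intervals given are exact 95% limits that cover counting error only.

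Cells fell into 29 clusters, made without the 7 genes, and 8 of these clusters were of connective-tissue classes, with 1914, 2182, 3003 and 3387 cells in the unamputated, 12, 17 and 28 dpa libraries. Markers other than the 7 genes placed clusters 11 and 13 in the tenocyte class. Of these markers, Comp, a cartilage and tendon matrix protein, was higher in cluster 11, at 1191, 1052, 1370 and 3276 CPM in the 4 libraries, against 170.1, 178, 184 and 625 CPM in cluster 13, and Fmod, Cilp2 and Fibin were also higher there in every library. Cpxm2 had the higher value in cluster 13 at 12 and 28 dpa and Angptl7 at 28 dpa, and in cluster 11 in the other libraries. Kera, a keratan sulfate proteoglycan, had the higher values in cluster 13, at 49.8, 41.6, 73.5 and 58.6 CPM against 21.9, 27.5, 34.1 and 51.5. Cluster 13 was led by C1qtnf3 itself, Fbn2, Crabp1, Tnn and Col24a1, with none of the tenocyte markers among its 10 leading genes. It was placed in the class by detected Fmod, Fibin, Cpxm2, Comp and Kera alone, so it is called by its number and given no cell type name, as are clusters 15, 18, 27 and 28, which fell in the fibroblast class with no fibroblast marker among their leading genes. Cluster 11, with Comp, Cilp2, Fmod and Fibin among its leading genes, is called tenocyte-like. The name rests on these markers. At the finer resolution below, many of its cells fell in a group with Chad or in one with Acan and Prg4. In the unamputated, 12, 17 and 28 dpa libraries, cluster 13 made up 32.3%, 73.9%, 8.52% and 2.18% of connective-tissue cells, and cluster 11 made up 17.6%, 9.44%, 18.7% and 15%.

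**Figure D1:**
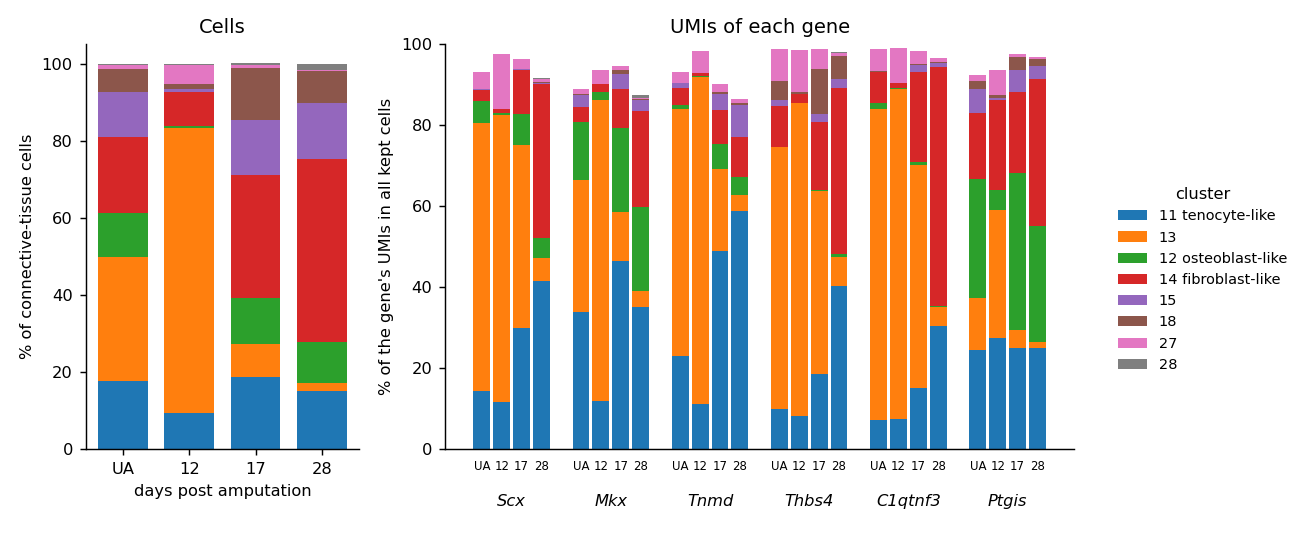
Left, share of connective-tissue cells in each of the 8 connective-tissue clusters, in percent, for the unamputated (UA), 12, 17 and 28 dpa libraries. Right, percent of the UMIs of each gene in all kept cells that came from each of these clusters, the rest up to 100 coming from other cells. Cluster 13 gave 81.4% of C1qtnf3 UMIs at 12 dpa and 4.86% at 28 dpa.

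The genes were largely confined to connective-tissue cells. These cells supplied between 86.4% and 100% of the UMIs of each gene in each library, and for Thbs4 and C1qtnf3 never less than 96.6%. At 12 dpa, cluster 13 alone supplied 71.0% of Scx, 74.3% of Mkx, 80.8% of Tnmd, 77.0% of Thbs4 and 81.4% of C1qtnf3 UMIs. At 28 dpa it supplied between 3.97% and 7.30% of the UMIs of those 5 genes. Ptgis stood aside from the others, with 31.6% of its UMIs in cluster 13 at 12 dpa and 13% in the unamputated library.

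The 3 comparisons below set each dpa library against the same unamputated library and so are not independent of each other. Log2 differences are between values of CPM plus 1. Of the 6 genes that reached 5 CPM, 0 were at least 2-fold higher and 1, Ptgis, at least 2-fold lower at 12 dpa, where 0.623% of 10759 genes were that much higher and 4.67% that much lower. At 17 dpa, 0 were higher and 1, Tnmd, was lower, against 1.38% and 1.30% of all genes. At 28 dpa, 1 was higher, Ptgis, and 3 were lower, Mkx, Tnmd and C1qtnf3, against 3.35% and 5.67% of all genes. At 12, 17 and 28 dpa the 6 genes had median log2 differences of 0.35, −0.57 and −0.74, beside −0.19, −0.03 and −0.11 over all genes of at least 5 CPM. The direction of the median depended on the cells summed: with the cluster shares of the unamputated library, as described below, it was 0.01, 0.23 and 0.14, and in all kept cells 1.01, 0.08 and −0.20. Scaling by median-of-ratios size factors in place of total UMIs moved the median of all genes by 0.20, 0.04 and 0.13, and the share of 2-fold differences that were higher from 11.8% to 39.4% at 12 dpa and from 37.2% to 50.5% at 28 dpa. Among the 6 genes it turned the 12 dpa counts to 1 higher, Scx at 1.18, and 0 lower, Ptgis being at −0.80. At 28 dpa it left 1 lower, C1qtnf3 at −1.32, with Mkx at −0.96 and Tnmd at −0.90, while Ptgis stayed the 1 higher gene at 1.43. The 17 dpa counts were the same under size factors. Of all genes, 1.94%, 1.53% and 4.31% were at least 2-fold higher and 2.99%, 1.19% and 4.23% lower under this scaling at 12, 17 and 28 dpa.

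**Figure D2:**
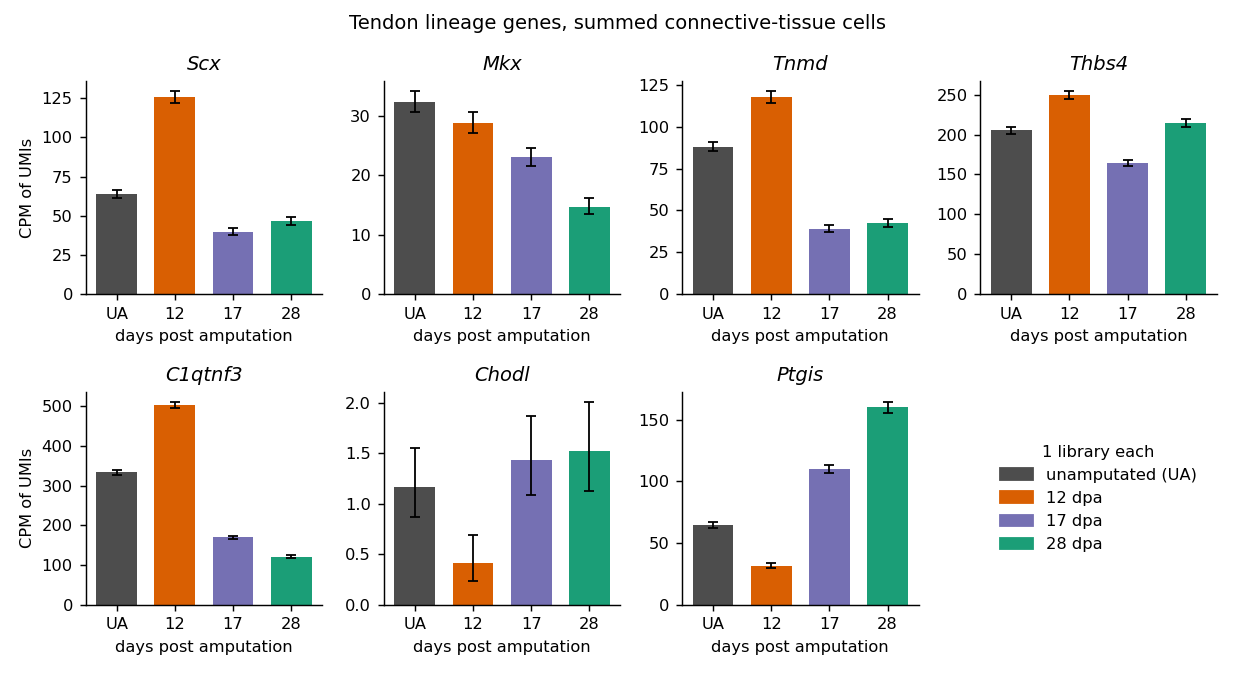
Level of each of the 7 genes in the summed connective-tissue cells of each library, in CPM (linear axes from 0), with 1 bar per library and exact 95% counting intervals. Scx, Tnmd, Thbs4 and C1qtnf3 were highest at 12 dpa, and at 28 dpa Mkx was lowest and Ptgis highest.

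Scx (chr15:76457452-76459458, GRCm38, plus strand) encodes the transcription factor that marks the lineage. In connective-tissue cells it was at 63.7 CPM in the unamputated library (interval 61.3 to 66.2), 126 at 12 dpa (122 to 130), 39.9 at 17 dpa (37.9 to 41.9) and 46.5 at 28 dpa (44.2 to 48.9). The 12 dpa library was the highest and the 17 dpa library the lowest, and no interval overlapped another. The log2 differences were 0.97, −0.66 and −0.45, or 1.16, −0.63 and −0.33 relative to the median of all genes. Within cluster 13 the levels lay closer together, at 118, 123, 160.1 and 143 CPM in the same order. Within cluster 11 they were 64.6, 178, 76.1 and 145 CPM, so that the 12 and 28 dpa libraries were both above the other pair there. After thinning each cell to 2000 UMIs, 15.2%, 15.3%, 17.0% and 17.8% of cluster 13 cells and 6.89%, 25.7%, 11.4% and 20.5% of cluster 11 cells had an Scx UMI (unthinned, 52.7%, 44.3%, 49.2% and 44.6%, and 40.2%, 69.4%, 39.4% and 50%). Macrophage-like cells, which should lack the gene, had Scx in 0 of 1316, 2 of 695, 0 of 580 and 0 of 219 thinned cells. The counts of 0 allow up to 0.228%, 0.517% and 1.37% of cells with a UMI at this depth, which does not limit the share of cells expressing the gene. The gene lies inside Bop1, which is on the other strand and shares no exon with it, and whether reads of Bop1 were counted as Scx was not tested.

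Scx was also high in the small cluster 27, a connective-tissue cluster led by cell cycle genes, with 23, 107, 17 and 9 cells, at 156, 226, 73.9 and 76.7 CPM. This cluster gave 13.6% of all Scx UMIs at 12 dpa, from 107 of 6514 cells, and 4.23% in the unamputated library. It fell in the tenocyte class when the 7 genes were added to the markers. Outside connective tissue, keratinocyte-like cluster 6, led by hair keratins, had Scx at 14.1, 18.9, 23.5 and 13.7 CPM, and 4.29%, 3.87%, 4.38% and 3.33% of its thinned cells had a UMI. Thinned to the same depth, macrophage-like cells had an Scx UMI in at most 0.288%, and the intervals of the 2 cell types did not overlap in any library.

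Mkx encodes the homeobox transcription factor Mohawk. In connective-tissue cells it was at 32.4 CPM in the unamputated library (30.7 to 34.2), 28.8 at 12 dpa (27.1 to 30.7), 23.1 at 17 dpa (21.6 to 24.7) and 14.7 at 28 dpa (13.5 to 16.1). The intervals of the unamputated and 12 dpa libraries almost met, and the 28 dpa library was the lowest. The log2 differences were −0.16, −0.47 and −1.09. The first of these changed sign with the scaling, to 0.05 under size factors, so no direction is given for 12 dpa. Mkx was lower in cluster 13 than in cluster 11 in the unamputated, 12 and 17 dpa libraries, and at 28 dpa their intervals overlapped, with 31.1, 30.7, 25.6 and 33.9 CPM there and 80.7, 43.8, 69.7 and 40.7 CPM in cluster 11. It was also present in osteoblast-like cluster 12, at 43.9, 38.4 and 42.2 CPM in the unamputated, 17 and 28 dpa libraries (the 12 dpa library had 10 such cells). Schwann-like cells had 23.7, 26.8, 9.27 and 8.67 CPM from 85, 48, 7 and 7 UMIs. Mkx lies on chromosome 18 and shares exons with AC148004.2 on the same strand, to which the files gave 77 UMIs in all kept cells.

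Tnmd (chrX:133850980-133865577, plus strand) encodes tenomodulin, the membrane marker of differentiated tenocytes. In connective-tissue cells it was at 88.2 CPM in the unamputated library (85.4 to 91.1), 118 at 12 dpa (114 to 121), 39.2 at 17 dpa (37.2 to 41.2) and 42.6 at 28 dpa (40.4 to 44.9). The intervals of the 17 and 28 dpa libraries overlapped, and both libraries were below the other pair. The log2 differences were 0.41, −1.15 and −1.03. Within cluster 13 the order was different: the unamputated library was the highest at 151.5 CPM, followed by 129.7 at 12 dpa, 97.2 at 28 dpa (from 74 cells) and 74.9 at 17 dpa. Within cluster 11 the levels were 142, 158, 130.5 and 199.8 CPM, highest at 28 dpa. The 12 dpa library was thus above the unamputated library in the sum and below it in cluster 13, and in cluster 11 its log2 difference of 0.16 had an interval that reached 0.

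Tnmd was also found outside connective tissue. Vascular smooth muscle-like cells had 31.2, 25.1, 39.5 and 54.8 CPM, and 4.50%, 4.55%, 8.05% and 10.2% of their cells thinned to 2000 UMIs had a Tnmd UMI (unthinned, 17.6%, 13.5%, 15.8% and 17.6%). Keratinocyte-like cells had 0.206%, 0, 0.148% and 0.115%, and macrophage-like cells had 0 in every library. The smooth muscle-like cells held little C1qtnf3, at 1.47, 5.46, 1.11 and 3.92 CPM, and Scx at no more than 3.28 CPM. The thinned share was higher in the 28 dpa than in the unamputated library with intervals that did not overlap (7.86% to 12.9%, against 2.64% to 7.1%), whereas the unthinned shares were equal, the median depth of these cells being 4266 and 11536 UMIs.

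Thbs4 (chr13:92751590-92794818, minus strand) encodes a thrombospondin of the tendon matrix. In connective-tissue cells it was at 205 CPM in the unamputated library (201 to 209.7), 249 at 12 dpa (244 to 254), 164 at 17 dpa (160.1 to 168) and 215.0 at 28 dpa (210.0 to 220.1). It had the narrowest range of the 6 genes, with log2 differences of 0.28, −0.32 and 0.07. Inside clusters the range was wider. Cluster 13 had 351, 262, 645 and 796 CPM, the 17 and 28 dpa libraries being above both others, and cluster 11 had 136, 250.4, 188 and 608 CPM. At 28 dpa, then, Thbs4 was 1.05-fold of the unamputated level in the sum, while it was higher by 2.15 log2 units in cluster 11 and by 1.18 in cluster 13. The cells that made up these clusters differed between the libraries: in the finer clusters described below, the 28 dpa difference was −1.11 in fine cluster 14, −0.30 in fine cluster 15 (38 cells at 28 dpa) and 2.57 in fine cluster 22. Cluster 18 had 233, 177 and 206 CPM in the unamputated, 17 and 28 dpa libraries, with Scx at 0, 0 and 0.512 CPM, so Thbs4 was not limited to Scx-expressing clusters.

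C1qtnf3 (chr15:10952332-10980150, plus strand) encodes a secreted protein of the C1q and tumour necrosis factor-related family. In connective-tissue cells it was at 333 CPM in the unamputated library (328 to 339), 504 at 12 dpa (496 to 511), 169.8 at 17 dpa (166 to 174) and 121 at 28 dpa (117 to 125). No intervals overlapped, and the 28 dpa library was the lowest. The log2 differences were 0.59, −0.97 and −1.46, the last of them the most negative value among the 6 genes. In cluster 13, of which it was a leading gene, it was at 679, 555.5, 816 and 302 CPM, highest at 17 dpa. In cluster 11 it was at 160.1, 448, 159 and 262 CPM, highest at 12 dpa. At 28 dpa the finer clusters 14, 15 and 22 had log2 differences of −2.86, −0.41 and 0.67. Fibroblast-like cluster 14, the largest connective-tissue cluster at 28 dpa, had 136, 97.0, 116 and 131 CPM, with less spread than in cluster 11 or 13.

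Chodl (chr16:78930948-78951733, plus strand) encodes chondrolectin, a membrane protein with a C-type lectin domain. Connective-tissue cells held only 49, 15, 55 and 49 Chodl UMIs, which is 1.17, 0.417, 1.44 and 1.52 CPM, and the intervals of all but the 12 dpa library overlapped. These UMIs lay in few cells. At 17 dpa, 30 of the 55 came from 2 cells of cluster 13, 29 of them from 1 cell. At 28 dpa, 38 of the 49 came from 13 of the 52 cells of cluster 28, a small cluster led by Hhip, Gpc5 and Nrg3. Outside the cells that were kept the picture differed for 1 library: over all barcodes of the unamputated library there were 264 Chodl UMIs, and 19.7% of these were in kept cells, against 73.3% to 94.4% in the others. Of the 264, 200 were in cells marked as doublets, and 1 barcode held 69.

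Ptgis (chr2:167191805-167240604, minus strand) encodes prostacyclin synthase, the enzyme that makes prostacyclin from prostaglandin H. In connective-tissue cells it was at 64.8 CPM in the unamputated library (62.3 to 67.2), 31.7 at 12 dpa (29.9 to 33.6), 110.1 at 17 dpa (107 to 114) and 159.8 at 28 dpa (156 to 164). No intervals overlapped, and the order was the reverse of that of C1qtnf3. The log2 differences were −1.01, 0.76 and 1.29. Osteoblast-like cluster 12 had the highest levels, at 172, 336 and 575 CPM in the unamputated, 17 and 28 dpa libraries, and 26.3%, 45% and 60.5% of its thinned cells had a UMI (unthinned, 74.1%, 86.0% and 88.1%), against at most 0.444% of keratinocyte-like cells. Cluster 11 had 112, 111, 172 and 285 CPM. Cluster 13 was at 23.9, 14.4, 42.8 and 116 CPM, below cluster 11 in every library, and at 28 dpa its interval overlapped that of fibroblast-like cluster 14, at 106 CPM. At 12 dpa cluster 13 held 73.9% of the connective-tissue cells. Ptgis shares exons with 1110018N20Rik on the other strand, which had 121 UMIs in all kept cells.

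**Figure D3:**
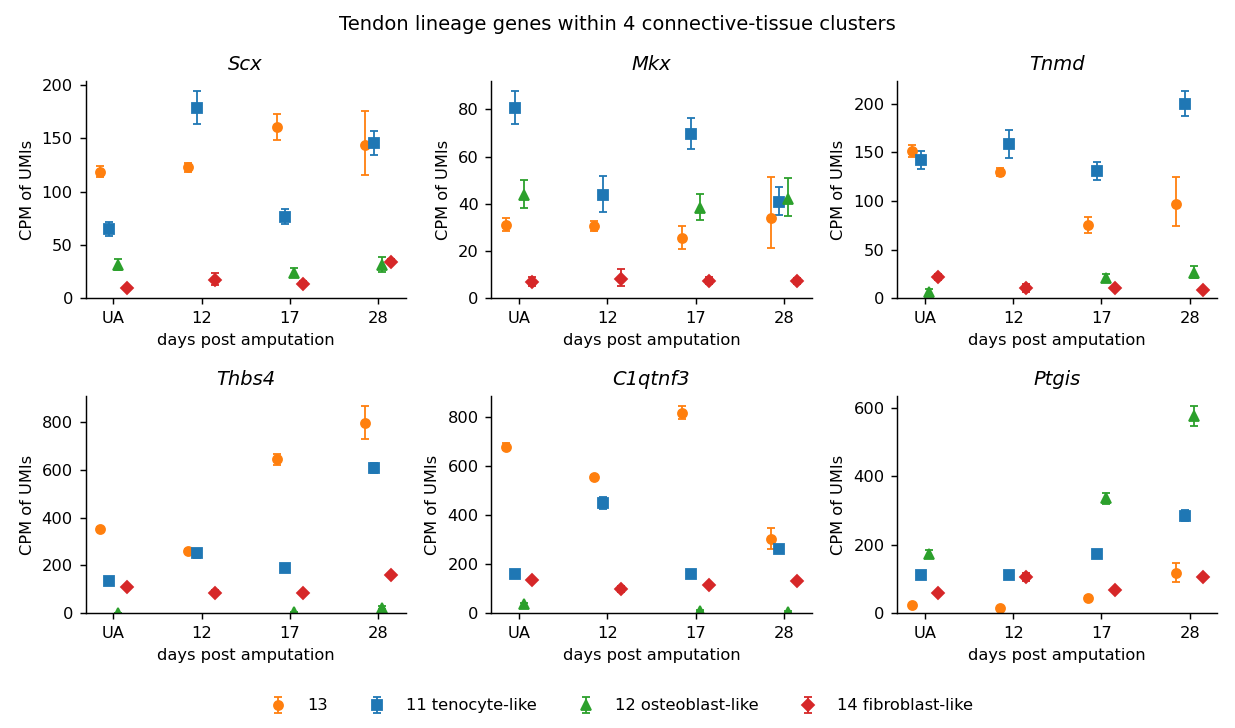
Level of 6 genes within clusters 13, 11 (tenocyte-like), 12 (osteoblast-like) and 14 (fibroblast-like), in CPM (linear axes from 0), with exact 95% counting intervals. Sums of fewer than 50 cells are not drawn, which leaves out cluster 12 at 12 dpa. Ptgis in cluster 12 and Thbs4 in cluster 11 were highest at 28 dpa.

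The sums above mix the level within clusters with the make-up of the connective-tissue cells. When the share of connective-tissue UMIs from each cluster was held at that of the unamputated library, a calculation chosen after seeing the data, the log2 differences of Scx became 0.52, 0.32 and 0.47 at 12, 17 and 28 dpa, and those of C1qtnf3 became 0.01, 0.15 and −0.83. Those of Tnmd became −0.08, −0.66 and −0.18, and those of Mkx 0.01, −0.23 and −0.30. With the shares held, then, Scx was higher than in the unamputated library at all 3 times, and Tnmd and Mkx lay near or below it. Thbs4 became −0.31, 0.60 and 1.12, and Ptgis 0.30, 0.65 and 1.51. The 12 dpa differences of 5 of the 6 genes were within 0.31 of 0 under this calculation, and Scx, at 0.52, was the exception. Clusters 12 and 15 held only 10 and 16 cells at 12 dpa and were still given their unamputated shares. Ptgis was at 276.5 CPM in those cells of cluster 12, from 61 UMIs, so its 12 dpa value leans on few cells. The calculation holds the shares of the 8 clusters and not the make-up within them, which also differed between libraries. Leaving out cluster 13 altogether gave Scx 2.13, −0.31 and 0.56 and C1qtnf3 1.55, −0.50 and −0.03.

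**Figure D4:**
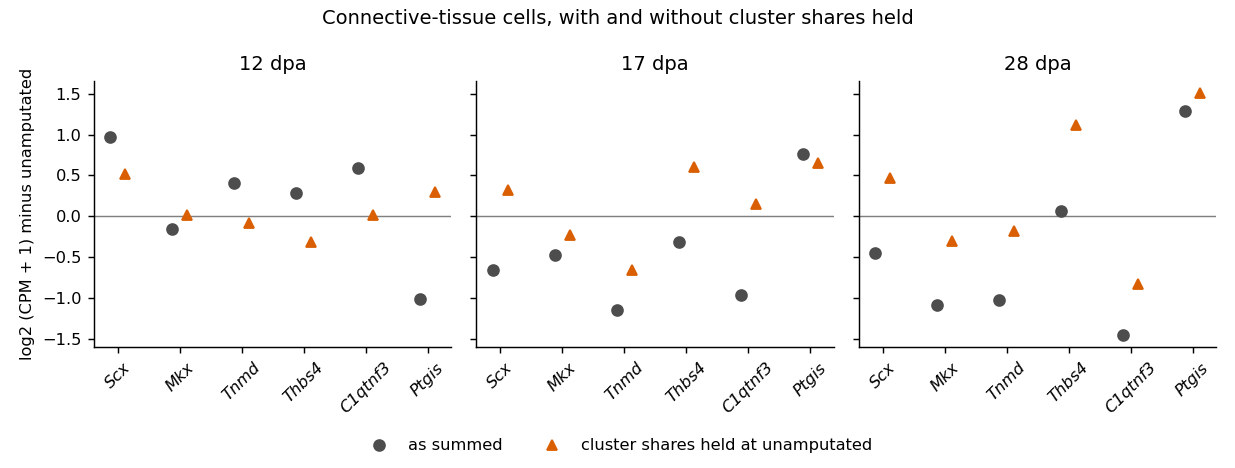
Log2 difference of each of 6 genes from the unamputated library in connective-tissue cells, in log2 of CPM plus 1, as summed (circles) and with cluster shares held at those of the unamputated library (triangles), 1 panel per dpa library. At 28 dpa, Scx lay at −0.45 as summed and at 0.47 with shares held. Clusters 12 and 15 held only 10 and 16 cells at 12 dpa.

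At a finer resolution, which gave 46 clusters, most cells of cluster 13 lay in fine clusters 15, 16 and 22, which also took cells from elsewhere. Fine cluster 16 held 62.8% of the cluster 13 cells of the unamputated library and 8.11% of those at 28 dpa, while fine cluster 22 held 6.3% and 58.1%. At 28 dpa, cluster 13 gave 44.7% of the cells of fine cluster 15 and 43% of those of fine cluster 22, so the levels there include many cells from outside cluster 13. Among these 3, fine cluster 15 had the highest Scx, at 181, 194.7, 204 and 227.7 CPM in the 4 libraries. Its C1qtnf3 was at 842, 698, 1014 and 633 CPM. C1qtnf3, Scx and Thbs4 were among its 10 leading genes, so these levels describe the group. It held 198, 839, 152 and 38 cells, so it was 38.5% of connective-tissue cells at 12 dpa and 1.12% at 28 dpa. Fine cluster 16, led by Col24a1, Spock3 and Kif26b, had less Scx, at 98.9, 50.1 and 94.1 CPM in the unamputated, 12 and 17 dpa libraries, and Tnmd at 169, 124 and 104 CPM. Fine cluster 22, with Mfap4, Eln, Kera and Thbs4 among its leading genes, had the least Scx of these in the unamputated library, at 31.2 CPM, and its Tnmd was at 24.7, 72.6, 104.6 and 162 CPM and its Thbs4 at 194, 272, 386 and 1157 CPM. Both were lowest in the unamputated library and highest at 28 dpa there, with no overlap of intervals. Of the cells of cluster 11, 66.7%, 24.3%, 70.6% and 35.8% lay in fine cluster 14, with Chad and Igf2, and 2.68%, 26.7%, 10.7% and 53.5% in fine cluster 32, with Cilp2, Hapln1 and Comp. The 10 leading genes of fine cluster 32 also held Acan, a marker of the chondrocyte list, and Prg4, which like Hapln1 is in the joint-lining list, and the part of such cells in the values of cluster 11 was not tested. At 12 dpa another 36.4% lay in fine cluster 15. Fine cluster 32 held 9, 57, 63 and 281 cells, and at 28 dpa it had Scx at 183 and Thbs4 at 782 CPM, against 49.0 and 30.6 CPM in fine cluster 14.

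Within cells the genes were detected together to different degrees. Among connective-tissue cells thinned to 2000 UMIs, C1qtnf3 was found in 56.6% of cells with an Scx UMI and 22% of those without in the unamputated library, and in 61.5% and 40.3% at 12 dpa, 45.5% and 9.34% at 17 dpa and 31% and 11.1% at 28 dpa. The gap was present inside cluster 13 alone, at 68.8% and 49.7%, 65.7% and 44.7%, and 81.4% and 37.6% in the first 3 libraries. For Tnmd the shares with and without an Scx UMI were 14% and 8.43%, 13.7% and 12.6%, 11.9% and 5.01%, and 10.3% and 4.90% over all connective-tissue cells of the 4 libraries, and their intervals did not overlap at 17 and 28 dpa. Inside cluster 13 they were 16.1% and 14.7%, 16.3% and 14.1%, and 6.98% and 8.57% in the first 3 libraries, with intervals that overlapped in each. In cluster 11, Tnmd was in 39.0% of cells with a Thbs4 UMI and 15.7% of those without in the unamputated library, and in 26% and 10.3%, 30% and 14%, and 29.9% and 12.9% in the 12, 17 and 28 dpa libraries. The intervals of the 12 dpa pair overlapped. Cells of 1 library share their source, so these shares describe single libraries. At this depth, 17.2%, 30.9%, 10.6% and 14.1% of connective-tissue cells had UMIs of at least 2 of the 7 genes.

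Across 97 sums of a cluster in a library (at least 50 cells each), the genes most like each member by Pearson correlation of log2 CPM plus 1 were drawn from 13056 genes. For Scx they were Plaat1, Tafa2 and Tnn (0.868, 0.828 and 0.822), and for Mkx they were Fibin, Col11a1 and Col16a1 (0.846, 0.843 and 0.842). For Tnmd they were Kcnma1, Lox and Aspn (0.879, 0.873 and 0.851), and for Thbs4 they were Cilp, Fam180a and Mfap5 (0.895, 0.885 and 0.874). For C1qtnf3 they were Lrrc15, Fmod and Itga11 (0.864, 0.863 and 0.855), and for Ptgis Lum, Pdgfra and Itgbl1 (0.858, 0.846 and 0.836). For Chodl they were Rspo4, Sim1 and Aard (0.863, 0.848 and 0.843). How far these values rest on the 28 dpa sum of cluster 28 was not tested. Between members, Tnmd and C1qtnf3 had the highest value, 0.82, and Tnmd and Chodl the lowest, 0.19. The sums share libraries, depth and cell types, and the values are a description.

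Of 65 related genes in 4 lists, 51, 52 and 53 reached 5 CPM at 12, 17 and 28 dpa. The lists were chosen with earlier results of these data known, so their shares beside those of all genes are a description. At 12 dpa, 0 were at least 2-fold higher and 6 at least 2-fold lower, or 11.8% of those measured, beside 4.67% of all genes. At 17 dpa, 4 were higher and 2 lower, or 7.69% and 3.85%, beside 1.38% and 1.30% of all genes. At 28 dpa 5 were higher and 14 lower, or 9.43% and 26.4%, beside 3.35% and 5.67% of all genes. Under size factors the counts were 0 and 5, 4 and 2, and 6 and 13, beside 1.94% and 2.99%, 1.53% and 1.19%, and 4.31% and 4.23% of all genes. The tendon matrix list was lowest at 28 dpa, with 9 of its 22 measured genes (40.9%) lower, 3 (13.6%) higher and a median log2 difference of −0.79. Col11a1, a chain of the fibril-forming type XI collagen, was at 1065 CPM in the unamputated library, 409 at 17 dpa and 222.5 at 28 dpa, and Tnc, the matrix glycoprotein tenascin C, at 919.8, 464 and 236. Prelp and Tppp3 went the other way, from 113 and 109 CPM to 582 and 478 at 28 dpa. Tppp3 marks cells of the tendon sheath and is not a matrix protein, though the list counts it.

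Among regulators and signals, 3 of 14 (21.4%) were at least 2-fold lower at 12 dpa and 3 at 28 dpa, beside 4.67% and 5.67% of all genes, and 0 at 17 dpa, beside 1.30%. Scaled by total UMIs, the list had 0 genes at least 2-fold higher in any library, where at most 3.35% of all genes were. Klf4 was just short of this at 28 dpa, at 0.98, where size factors moved the median of all genes by 0.13. Eya2 and Eya1, transcriptional co-activators, were lower in all 3 dpa libraries, Eya2 from 39.9 CPM to 10.3, 21.1 and 8.44. Among relatives of the members, 0 of 10 measured genes were at least 2-fold higher and 1 was that much lower in each dpa library, and the median log2 difference at 28 dpa was 0.17. Thbs2 was at 725, 971, 371 and 328 CPM and Thbs1 at 389 CPM in the unamputated library and 181 and 217.4 at 17 and 28 dpa, beside 205 CPM of Thbs4 in the unamputated library and 164 and 215.0 at those times. Thbs3, another thrombospondin, and C1qtnf1 had the highest differences at 28 dpa among genes of the list of at least 20 CPM, 0.48 and 0.85, from 138 and 43.4 CPM in the unamputated library. In the prostanoid list, Ptgs2, the inducible cyclooxygenase upstream of Ptgis, was at 82.5, 49.7, 50.3 and 31.7 CPM, lowest at 28 dpa, where Ptgis was highest. Of this list, 2 of 7 measured genes were 2-fold higher at 28 dpa and 1 was lower, counts too small to read against the 3.35% and 5.67% of all genes.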

How the data were processed

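The authors deposited UMI counts per gene and cell, made with Cell Ranger 7.1.0 against mm10, per the submitters' processing notes. How cells were called, and with which annotation, was not given in the sources used here. Gene positions are those of GENCODE M21 (GRCm38), which held 32158 of the 32285 gene IDs.

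A cell was kept if it had 500 or more genes, 1000 or more UMIs and no more than 10% of its UMIs from mitochondrial genes. Doublets were taken as the top Scrublet scores of a library, at a rate of 0.8% per 1000 barcodes, or 12.8%, 7.05%, 8.41% and 12.2% of the barcodes of the libraries in order of time. Total UMIs of the unamputated, 12, 17 and 28 dpa libraries were 197140774, 92313847, 95988993 and 106899985. The libraries were clustered jointly (scanpy 1.11.5, igraph 0.11.9, numpy 2.4.6 and scipy 1.17.1 under Python 3.11.15) with the Leiden method, at resolution 1 and, for the finer groups, 2. The graph joined 15 neighbours in the space of 30 components from 2000 variable genes, and left out the 7 genes, the related lists, Xist, Tsix, Y-linked and mitochondrial genes. A class gave its name to a cluster when 3 or more of its markers were each found in 25% or more of the cells, and when the 10 leading genes did not hold more markers of a different class. By this rule 2 clusters stayed unnamed, 1 more did for low UMIs per cell with no marker of its class among its leading genes, and 1 for scoring higher for another class. Connective-tissue clusters 13, 15, 18, 27 and 28, with no marker of their class among their leading genes, are called by number with no cell type name, a choice made after seeing the data, and stay among the connective-tissue cells. Of 8 tenocyte markers, 7 were in the files.

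UMIs were summed over the cells of a class or cluster and scaled to CPM. Log2 differences used a pseudocount of 1 CPM, and genes needed 5 CPM in the higher library. Intervals are exact Poisson limits for sums and exact Clopper-Pearson limits for shares of cells at the 95% level. The limit for a share of 0 is 3 counts. Shares were also taken after thinning each cell to 2000 UMIs, leaving out shallower cells. On simulated counts, 100%, 100% and 99.5% of 200 changed genes at 12, 17 and 28 dpa, among 3646 genes, were recovered within 0.2 log2 units. The simulation held counting error only, so it checks the calculation and nothing else. Its changed genes all lay above the unamputated levels of Mkx and Chodl.

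Named genes were the 7 members, the 2 highest and 2 lowest genes of each related list at each time among those of at least 20 CPM, and the 3 genes most like each member. Markers named for clusters, and the groups of the finer clustering, were chosen after their values were seen. The members and the lists were chosen with earlier results of these data known. Alternatives covered the cell filter, doublets, cluster resolution, choice of cells, averaging, scaling, pseudocount, thinning, marker list, gene minimum and fold.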

Additional observations from a re-analysis of the deposited data

Results flagged for a closer look

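Clusters 11 and 13 differed from the unamputated library in opposite directions in 4 cases in which both counting intervals left out 0. C1qtnf3 at 28 dpa was higher by 0.71 log2 units in cluster 11 and stood at −1.16 in cluster 13, a gap of 1.87. At 12 dpa it stood at 1.48 and −0.29, a gap of 1.77. Thbs4 at 12 dpa stood at 0.87 and −0.42, a gap of 1.29. Tnmd at 28 dpa stood at 0.49 and −0.64, a gap of 1.13. With 1 library per group, none of these differences between clusters was tested. Cluster 13 had 74 cells at 28 dpa. The cells inside both clusters differed between libraries: fine cluster 14 held 66.7% of cluster 11 in the unamputated library and 35.8% at 28 dpa, and fine cluster 16 held 62.8% and 8.11% of cluster 13. At 28 dpa C1qtnf3 stood at −2.86 in fine cluster 14, −0.41 in fine cluster 15 and 0.67 in fine cluster 22, and Tnmd at 0.08, −0.74 and 2.67. At 12 dpa C1qtnf3 stood at 0.55, −0.27 and 0.51 there, and Thbs4 at 0.67, −0.89 and 0.48. The part of this make-up in the gaps was not tested.

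Xist, which no comparison uses, was at 458 CPM in the 12 dpa library, against at most 0.153 CPM in the others.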

How the results depend on the processing

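Under 11 other settings of the cell filter, doublets, clustering, choice of cells, averaging, scaling, pseudocount and thinning of sums, Scx, Tnmd, Thbs4, C1qtnf3 and Ptgis kept their direction at 12 dpa in all, as did Mkx, Tnmd, Thbs4, C1qtnf3 and Ptgis at 28 dpa and Tnmd, C1qtnf3 and Ptgis at 17 dpa. Summing all kept cells turned Mkx at 12 dpa to 0.44, Scx, Mkx and Thbs4 at 17 dpa to 0.01, 0.14 and 0.40, and Scx at 28 dpa to 0.04, and size factors turned Mkx at 12 dpa to 0.05. With cluster shares held at those of the unamputated library, Mkx, Tnmd, Thbs4 and Ptgis at 12 dpa became 0.01, −0.08, −0.31 and 0.30, Scx, Thbs4 and C1qtnf3 at 17 dpa 0.32, 0.60 and 0.15, and Scx at 28 dpa 0.47, or 0.56 without cluster 13.

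The median of the members at 12, 17 and 28 dpa became 1.01, 0.08 and −0.20 in all kept cells, 0.56, −0.44 and −0.61 with no doublets removed, 0.28, −0.47 and −0.45 over all 7 genes, 0.01, 0.23 and 0.14 with cluster shares held, and 0.81, −0.40 and 0.26 without cluster 13. At 12 and 28 dpa it was 0.42 and −0.57 with the mean of per-cell CPM and 0.56 and −0.60 under size factors. Related genes 2-fold higher and lower became 4 and 1 at 12 dpa and 3 and 8 at 28 dpa in all kept cells, and 1 was lower at 17 dpa. At 1.5-fold, 1 and 10, 7 and 8, and 10 and 21 were higher and lower at 12, 17 and 28 dpa, beside 5.32% and 16.1%, 4.36% and 4.64%, and 8.87% and 16.4% of all genes. At 28 dpa 3 were higher with a pseudocount of 5 CPM or a minimum of 20 CPM, and 8 lower without cluster 13. Of the 6 members, 0 to 3 were 2-fold higher and 0 or 1 lower at 12 dpa over the 11 settings, 0 or 1 and 0 to 2 at 17 dpa, and 1 and 0 to 3 at 28 dpa. The share of all genes is given only for the main setting, size factors and 1.5-fold. The counts of members and related genes under the other settings cannot be read against it. Over the 11 settings, C1qtnf3 was 2-fold lower at 28 dpa in all but the sum of all kept cells. It was not 2-fold lower with cluster shares held, at −0.83, or without cluster 13, at −0.03. The cause of these shifts was not tested.

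No paired analysis was possible because the labels give no replicate numbers and each group held 1 library, which also means that no replicate could be left out. Depth limits Chodl, with 15 to 55 UMIs per library in connective-tissue cells, and cluster 13 at 28 dpa. Fewer cells of a type and fewer captured live cells of that type cannot be told apart.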

Other observations

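Unnamed cluster 17, which lay among the mural clusters, had Tnmd at 29.0, 21.1, 18.8 and 18.2 CPM and C1qtnf3 at 15.2, 22.8, 21.8 and 21.5 CPM in the unamputated, 12, 17 and 28 dpa libraries. Its Scx was at most 1.75 CPM, from at most 2 UMIs. Pericyte-like cluster 19 had Tnmd at no more than 2.19 CPM.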
